A study of Mus musculus with 16 samples.

Results

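The transcripts of the AP-1 family were measured in the neonatal mouse cochlea with and without ablation of Lgr5+ cells. The 9 genes were Fos, Fosb, Fosl1, Fosl2, Jun, Junb, Jund, Atf3 and Maff, chosen by gene symbol from the 47729 genes that had values. All 9 were among the 16994 genes that passed the filter on low values, Fosb through the DTR groups alone. Control cochleae came from GLAST-CreERT/+; Rpl22HA/+ mice (GLAST-RiboTag) and damaged cochleae from Lgr5DTR/+; GLAST-CreERT/+; Rpl22HA/+ mice (DTR), in which the diphtheria toxin receptor is knocked in at Lgr5. By the study's methods both genotypes received diphtheria toxin and tamoxifen at postnatal day 1, whereas the labels call the DTR mice treated and the controls untreated, and all cochleae were taken at postnatal day 4. In both genotypes Cre from the GLAST (Slc1a3) locus makes part of the greater epithelial ridge (GER) cells and inner phalangeal cells carry an HA tag on the ribosomal protein RPL22. The ribosome immunoprecipitate (IP) is meant to enrich the ribosome-bound RNA of these cells, and the input is RNA of the whole dissected tissue. Each pool of cochleae from several mice gave 1 input and 1 IP library, with 4 pools per genotype and 16 libraries in all.

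AP-1 is a DNA-binding complex of paired basic leucine zipper proteins. Fos proteins bind DNA paired with another zipper protein, mainly a Jun protein, whereas Jun proteins also pair with each other, and ATF3 and the small Maf protein MAFF are related zipper proteins that share partners or target sequences with them. Fos, Fosb, Jun, Junb, Atf3 and Maff are known as early response genes, transcribed soon after a growth signal, injury or stress without need of new protein, and Jund is known for its steadier expression. In wounded epithelia these factors are known to take part in the first transcriptional response.

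The start regions of 4 of the genes that rose in the comparisons given further on are shown. Fosb and Junb rose as well, and their start regions are not printed. RefSeq promoter sequences matched 8 of the 9 genes, all but Fosl1, with 10 start sites. The Jund start site, counted but not shown, lies well upstream of the annotated gene. Each sequence is the 250 bases before the RefSeq start site on GRCm38.p6, 5′ to 3′. The Atf3 and Maff start sites shown lie inside the annotated gene, downstream of its outermost start, and capitals mark the cyclic AMP response element (CRE, TGACGTCA) or its shorter core TGACGT on either strand.
Atf3, chr1:191183334-191183583, minus strand: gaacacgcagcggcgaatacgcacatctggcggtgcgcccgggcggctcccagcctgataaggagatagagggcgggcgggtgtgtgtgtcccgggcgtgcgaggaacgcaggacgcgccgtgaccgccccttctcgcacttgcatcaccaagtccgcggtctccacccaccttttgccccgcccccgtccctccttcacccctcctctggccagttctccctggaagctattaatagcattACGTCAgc
Fos, chr12:85473640-85473889, plus strand: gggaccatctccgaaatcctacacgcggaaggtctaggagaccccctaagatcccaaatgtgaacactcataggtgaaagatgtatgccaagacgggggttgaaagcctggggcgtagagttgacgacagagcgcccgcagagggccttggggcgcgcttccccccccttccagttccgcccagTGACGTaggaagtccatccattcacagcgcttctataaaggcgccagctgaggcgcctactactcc
Maff, chr15:79347270-79347519, plus strand: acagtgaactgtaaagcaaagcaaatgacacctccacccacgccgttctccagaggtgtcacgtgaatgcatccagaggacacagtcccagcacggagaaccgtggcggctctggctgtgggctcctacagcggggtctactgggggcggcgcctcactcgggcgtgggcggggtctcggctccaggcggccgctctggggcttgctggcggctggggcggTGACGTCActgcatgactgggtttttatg
Jun, chr4:95052223-95052472, minus strand: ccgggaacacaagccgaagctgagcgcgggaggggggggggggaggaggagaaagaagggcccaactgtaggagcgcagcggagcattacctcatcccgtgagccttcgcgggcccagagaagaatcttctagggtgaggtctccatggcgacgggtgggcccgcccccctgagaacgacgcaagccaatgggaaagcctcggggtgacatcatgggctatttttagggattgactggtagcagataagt
The core TGACGT was found before Atf3, Fos and 1 of the 3 Maff start sites, that is in 3 of the 10 windows, and in 6.47% of the 32851 windows of the same length from all genes. Before Jun, Fosb and Junb the core was not found. The full TGACGTCA, which contains the core, was found in that Maff window alone, 29 to 22 bases before the start, against 1.55% of all windows. The letters TGANTCA (both strands), a pattern wider than the AP-1 site TGACTCA or TGAGTCA, were found in none of the 10 windows and in 6.75% of all windows. Sites that differ from these letters were not counted. The CArG box, to which serum response factor binds, was also found in none of the 10 windows, and in 1.47% of all windows. A match is a description of letters in this window only.

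By the annotation (GENCODE M21, GRCm38) all 9 are protein-coding genes. Fos lies at chr12:85473890-85477273 on the plus strand, Fosb at chr7:19302696-19310051 on the minus strand, Fosl2 at chr5:32135801-32157842 on the plus strand, Atf3 at chr1:191170296-191218039 on the minus strand and Maff at chr15:79346621-79359076 on the plus strand, and no annotated exon of another gene overlaps their exons. Fosl1 (chr19:5447547-5455946, plus strand) shares 57.2% of its exon bases with Ccdc85b on the opposite strand, and Jund (chr8:70698949-70700616, plus strand) shares 52.6% with Gm11175. Jun (chr4:95049034-95052222, minus strand) shares 7.28% with its antisense gene Junos, and Junb (chr8:84974484-84978718, minus strand) shares 7.52% with Prdx2. The library kit does not mark strand, so reads from the shared bases cannot be told apart and these 4 genes are less certain than the other 5. Gm11175 was listed at 0 in every library, Junos had group means of 1.19 to 2.43 CPM, Ccdc85b of 28.7 to 32.4 CPM and Prdx2 of 409 to 521 CPM. CPM are a gene's reads scaled to the same total over all genes in each library.

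The libraries held 28089836 to 41966310 reads. Lgr5, the gene that carries the receptor, was 31.4 to 40.0 CPM in control IP and 8.13 to 11.3 CPM in DTR IP, and 59.0 to 66.1 CPM in control input and 11.2 to 19.6 CPM in DTR input, so each library fell on its labelled side. Of 8 genes of the Lgr5+ supporting cell lineage, 7 were lower in DTR in IP and 7 in input, against 7.3% and 5.21% of all genes. The summed level of the 8 was 1468 to 1725 CPM in control IP and 431 to 625 CPM in DTR IP. Slc1a3 itself did not differ past the limma test between DTR and control IP (LFC -0.11, adjusted p = 0.497). Between IP and input Slc1a3 did not pass in control (LFC -0.20, adjusted p = 0.102) and was lower in IP in DTR (LFC -0.27, adjusted p = 0.0299). LFC is the log2 fold change, here the difference of means of log2(quantile-normalized CPM + 0.5), tested with limma over all 16 libraries, and adjusted p is the Benjamini-Hochberg value over the 16994 genes tested. The added 0.5 makes LFC smaller for genes of low level. In bulk tissue, fewer cells of a type and less RNA per cell cannot be told apart.

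In the ribosome-bound RNA, 7 of the 9 genes were higher in DTR than in control IP: Fos, Fosb, Fosl1, Jun, Junb, Atf3 and Maff. Of all genes tested, 8.44% were called higher in this comparison. Jun, Atf3, Maff and Fosb were raised most by ratio of mean CPM, at 6.53-fold, 7.55-fold, 9.05-fold and 11.4-fold, and Fos at 6.14-fold, while Junb and Fosl1 were raised 2.18-fold and 2.21-fold. The study's criteria for a differentially expressed gene (DEG) were adjusted p under 0.05, a separation above 1.5 and an absolute LFC of at least 1. Separation is the lowest value of the higher group over the highest of the lower group after low values are raised to 1.08 CPM. Fos, Fosb, Jun, Atf3 and Maff, 5 of the 9, met them, against 1.12% of all genes on the higher side. The median LFC of the 9 genes was 2.26, and that of all genes tested was -0.00.

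**Figure D1:**
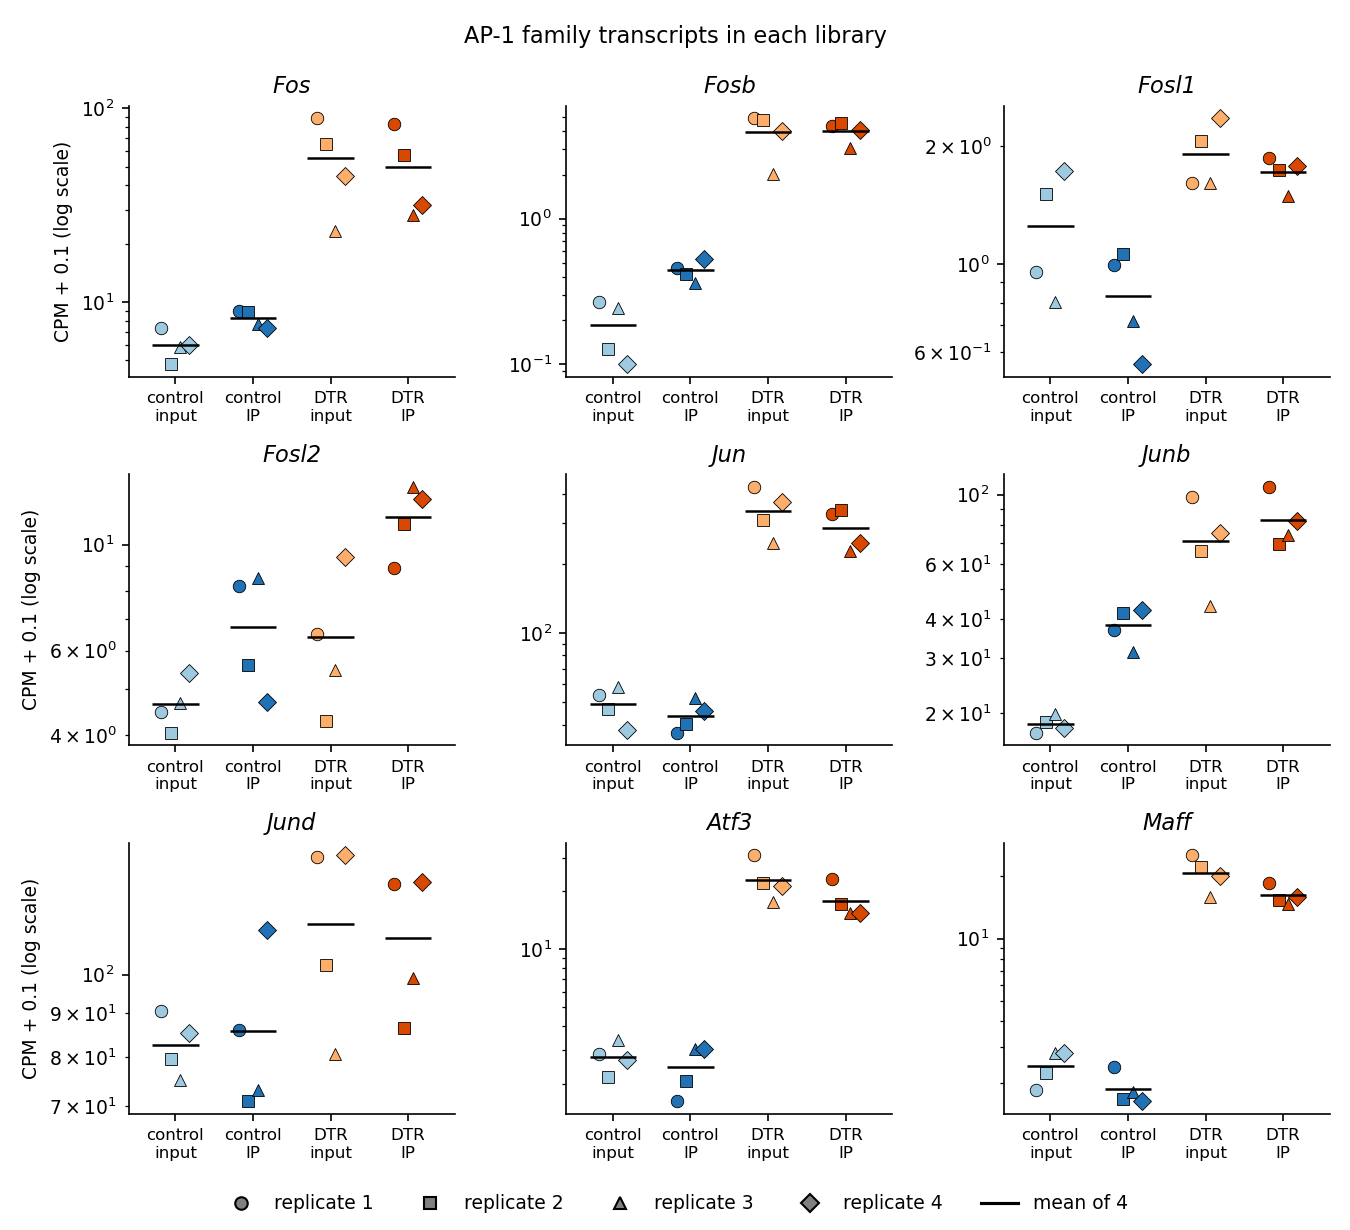
CPM + 0.1 on a log scale (y axis) in the 4 groups (x axis, each genotype's input and IP) for each of the 9 genes, with 1 point per library, the shape giving the replicate number, and a bar at the mean of 4. For Fos, Fosb, Jun, Junb, Atf3 and Maff every DTR library lay above every control library of the same kind, and for Jund the ranges overlapped in IP and in input. Of all genes tested, 16.5% in IP and 19.5% in input had no overlap in either direction after quantile normalization.

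Fos encodes the founding Fos protein. In replicates 1 to 4 Fos was 8.88, 8.79, 7.61 and 7.26 CPM in control IP and 82.7, 57.5, 28.0 and 31.6 CPM in DTR IP. The groups did not overlap, with a separation of 3.13 on the quantile-normalized scale. The LFC was 2.33 (SE 0.33, limma adjusted p = 5.51e-05). In input Fos was 7.22, 4.67, 5.75 and 5.93 CPM in control and 89.0, 65.7, 23.2 and 44.4 CPM in DTR, with an LFC of 3.00 (SE 0.33, limma adjusted p = 3.08e-06). Its spread in DTR was wide, with a coefficient of variation of 51.0% in DTR IP and 50.8% in DTR input against 10.1% and 17.7% in control.

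Fosb, a close relative of Fos, was near the limit of detection without damage. Control input held 7, 1, 6 and 0 Fosb reads in replicates 1 to 4, and 0 reads of that library allow a level of up to 0.0776 CPM by a limit of 3 reads, which covers counting error only. In control IP Fosb was 0.359, 0.320, 0.265 and 0.425 CPM, in DTR IP 4.21, 4.45, 2.95 and 3.95 CPM and in DTR input 4.82, 4.70, 1.92 and 3.93 CPM. The DTR and control ranges did not meet in either kind of library. Since no control library reached 0.5 CPM, Fosb entered the test only through the DTR groups where it was high. Its calls between DTR and control were kept without that filter. The LFC was 2.26 (SE 0.22, limma adjusted p = 8.88e-07) in IP and 2.72 (SE 0.22, limma adjusted p = 7.65e-08) in input. These sizes rest on the constant added before the logarithm, since the other settings gave 1.77 to 3.44 in IP and 2.02 to 5.41 in input, lowest with a constant of 1 and highest with DESeq2 on whole reads.

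The other Fos-like genes, Fosl1 (FRA-1) and Fosl2 (FRA-2), had an LFC below 1 in IP and in input, which for Fosl1, at about 1 CPM, is made smaller by the added 0.5. Fosl1 was 0.90, 0.96, 0.62 and 0.46 CPM in control IP and 1.77, 1.64, 1.39 and 1.68 CPM in DTR IP, a difference without overlap (LFC 0.63, SE 0.19, limma adjusted p = 0.0329). That call was lost (adjusted p from 0.063 to 0.0895) on leaving out any 1 of DTR IP replicates 1, 2 or 4 or control IP replicates 3 or 4, also without a filter on low values (adjusted p = 0.0785) and with only the compared groups in the fit (adjusted p = 0.0681), and DESeq2 or edgeR on whole reads gave an LFC of up to 1.07. In input Fosl1 ranged from 0.70 to 1.63 CPM in control and from 1.51 to 2.25 CPM in DTR, ranges that overlapped, and it did not pass the test (LFC 0.36, limma adjusted p = 0.286). Fosl2 was 8.07, 5.50, 8.41 and 4.58 CPM in control IP and 8.84, 10.9, 13.1 and 12.3 CPM in DTR IP. Although every DTR IP library was above every control IP library in CPM, the ranges met after quantile normalization and Fosl2 did not pass the test (LFC 0.65, SE 0.23, limma adjusted p = 0.0662). It did pass without quantile normalization (adjusted p = 0.0302), with median centring (0.0356), by DESeq2 (0.0266), without DTR IP replicate 1 (0.0405) and without control IP replicate 3 (0.0478). In input its LFC was 0.32 (95% interval -0.17 to 0.80, limma adjusted p = 0.463).

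Jun, the main partner of Fos proteins, had the highest CPM of the 9 genes after damage. Jun was 36.8, 40.1, 52.3 and 45.7 CPM in replicates 1 to 4 of control IP and 327, 341, 228 and 247 CPM in DTR IP. Its separation of 4.48 in IP was above those of Fos and Fosb. The LFC was 2.75 (SE 0.18, limma adjusted p = 3.86e-09) in IP. In input Jun was 53.9, 46.6, 58.0 and 37.8 CPM in control and 432, 311, 247 and 370 CPM in DTR (LFC 2.74, SE 0.18, limma adjusted p = 4.24e-09), so the sizes in IP and input were nearly the same number.

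Junb, which pairs with Fos proteins and can act against Jun at some promoters, had a smaller fitted LFC in IP than in input, a difference tested further on. Junb was 36.8, 41.6, 31.2 and 42.7 CPM in control IP and 106, 69.6, 74.2 and 82.1 CPM in DTR IP (LFC 1.10, SE 0.18, limma adjusted p = 0.00023). Its separation of 1.496 lay just under 1.5, which kept it out of the DEG criteria in IP. In input Junb was 17.2, 18.6, 19.7 and 17.8 CPM in control and 98.4, 65.7, 44.0 and 75.5 CPM in DTR (LFC 1.85, SE 0.18, limma adjusted p = 5.87e-07). No DTR library reached down to the highest control library of its kind. The study also tested Junb with the nCounter assay, a separate count of RNA, and lists it among the genes whose damage response was not borne out. By that assay the study reports Atf3 as increased in DTR IP. By in situ hybridization the study reports little Atf3 RNA in undamaged cochleae and strong signal in the lateral GER and organ of Corti after damage.

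Jund, the Jun gene with the steadiest expression, had the highest CPM of the 9 in control. Jund was 85.8, 70.8, 73.1 and 113 CPM in control IP and 128, 86.3, 99.1 and 128 CPM in DTR IP, with overlapping ranges and an LFC of 0.37 (95% interval -0.01 to 0.75, limma adjusted p = 0.184). In input it was 90.6, 79.4, 75.1 and 85.3 CPM in control and 137, 103, 80.6 and 138 CPM in DTR (LFC 0.45, limma adjusted p = 0.130). Jund passed the test in IP without control IP replicate 4 (LFC 0.53, adjusted p = 0.0433) and in input without DTR input replicate 3 (LFC 0.59, adjusted p = 0.0412).

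Atf3, a stress-induced zipper gene whose protein can pair with Jun, was 1.53, 1.98, 2.94 and 2.94 CPM in replicates 1 to 4 of control IP and 23.1, 17.1, 15.3 and 15.3 CPM in DTR IP. The groups did not overlap, with a separation of 4.18. The LFC was 2.55 (SE 0.23, limma adjusted p = 1.95e-07) in IP. In input Atf3 was 2.76, 2.08, 3.29 and 2.56 CPM in control and 30.8, 22.2, 17.5 and 21.1 CPM in DTR (LFC 2.86, SE 0.23, limma adjusted p = 4.36e-08). Maff encodes a small Maf protein that binds DNA but has no activation domain. In IP it was 2.30, 1.57, 1.70 and 1.54 CPM in control and 18.5, 15.3, 14.6 and 15.9 CPM in DTR (LFC 2.72, SE 0.17, limma adjusted p = 2.27e-09), and its separation of 5.99 was the highest of the 9 in that comparison. In input Maff was 1.76, 2.14, 2.71 and 2.69 CPM in control and 25.3, 22.01, 15.9 and 19.9 CPM in DTR (LFC 2.88, SE 0.17, limma adjusted p = 1.03e-09).

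**Figure D2:**
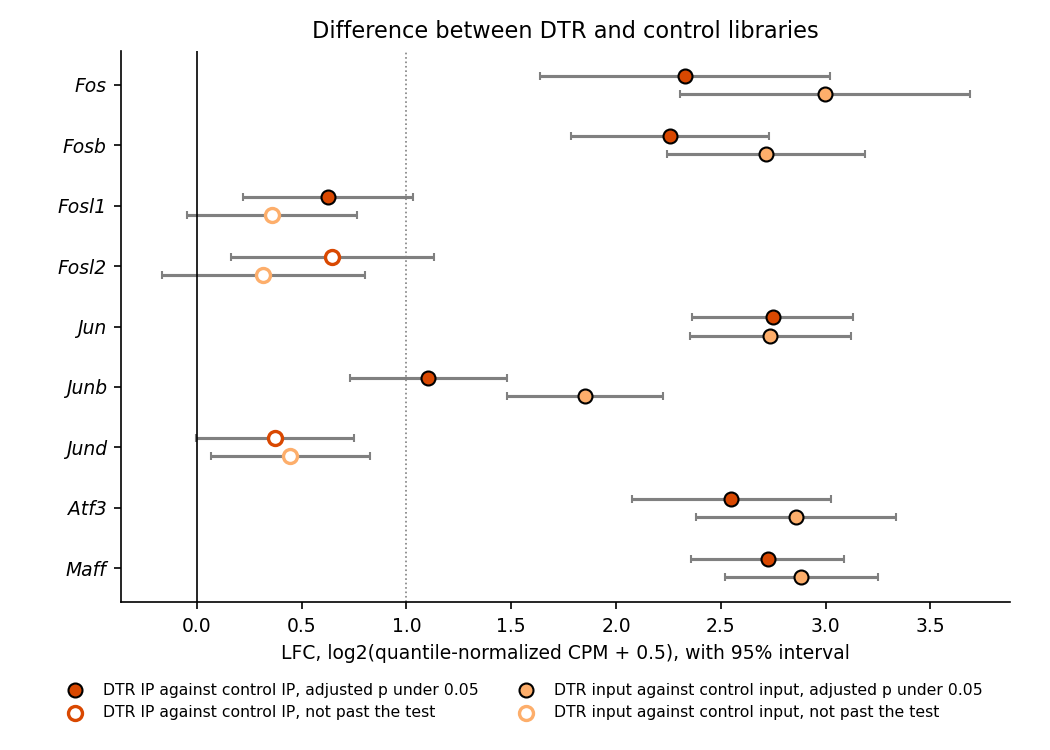
LFC (x axis, log2 scale, with its 95% interval) of the 9 genes (y axis) between DTR and control in IP and in input; filled points passed the test, open points did not, and the dotted line marks an LFC of 1. Fos, Fosb, Jun, Atf3 and Maff lie between 2.26 and 3.00 in both kinds of library, and Fosl1, Fosl2 and Jund lie between 0.32 and 0.65.

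In the whole tissue RNA, 6 of the 9 genes were higher in DTR than in control input (Fos, Fosb, Jun, Junb, Atf3 and Maff), where 7.17% of all genes were called higher. The same 6 met the DEG criteria, against 1.34% of all genes on the higher side. The median LFC of the 9 genes was 2.72 in input. Fitted with the replicate number as a block, since replicates of the same number deviated together, the IP comparison called all 9 genes higher, with 12.2% of all genes, adding Fosl2 (LFC 0.65, limma adjusted p = 0.0239) and Jund (LFC 0.37, limma adjusted p = 0.0217). The same block in input called 7 genes higher, with 9.76% of all genes, adding Jund (LFC 0.45, limma adjusted p = 0.00843).

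Whether the damage response differed between ribosome-bound and whole tissue RNA was asked by the interaction of genotype and kind of library. None of the 9 genes passed this test by limma, by edgeR or by DESeq2 at an adjusted p under 0.05. Since input and IP shared pools, limma was also fitted with each pool as a block, and none of the 9 passed there either. Of all genes, 0.0118% (2 genes) passed by limma, 40 with the pool block, 0 genes by edgeR and 49 by DESeq2. Without the block Junb alone had an unadjusted limma p under 0.05, with a response smaller in IP by 0.75 (95% interval -1.28 to -0.22, adjusted p = 0.636). With the pool block the limma adjusted p was 0.122 for Junb and 0.197 for Fos. The difference of the responses without the block was 0.01 for Jun (95% interval -0.53 to 0.56), -0.31 for Atf3 (95% interval -0.98 to 0.37) and -0.67 for Fos (95% interval -1.64 to 0.31).

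Without damage, 2 of the 9 genes were higher in control IP than in control input, Junb and Fosb, against 19.3% of all genes. Junb was higher in IP in every control pool, with IP over input ratios of 2.14, 2.24, 1.59 and 2.40 (LFC 1.01, SE 0.18, limma adjusted p = 0.000174). Fosb in these libraries rested on 0 to 13 reads (LFC 0.58, limma adjusted p = 0.0487; 0.34 to 1.99 under the other settings), and its call was lost under 5 other settings and on leaving out 7 of the 8 libraries in turn, control input replicate 1 being the exception (adjusted p up to 0.144 over these). With the pool block Fos (LFC 0.51, limma adjusted p = 0.00473) and Fosl2 (LFC 0.54, limma adjusted p = 0.0241) were called higher too, against 23.6% of all genes. After damage Fosl2 alone was higher in DTR IP than in DTR input, against 18.6% of all genes, with IP over input ratios of 1.38, 2.61, 2.45 and 1.32 (LFC 0.87, SE 0.23, limma adjusted p = 0.00573). In DTR the Junb ratios were 1.08, 1.06, 1.69 and 1.09 and its IP and input levels overlapped (LFC 0.26, limma adjusted p = 0.261). Atf3 (0.725 to 0.876) and Maff (0.697 to 0.922) had ratios below 1 in all 4 DTR pools but did not pass the test (LFC -0.39 and -0.38, limma adjusted p = 0.191 and 0.0912). With the pool block they did not pass either, with a limma adjusted p of 0.0558 for Atf3 and 0.0535 for Maff.

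**Figure D3:**
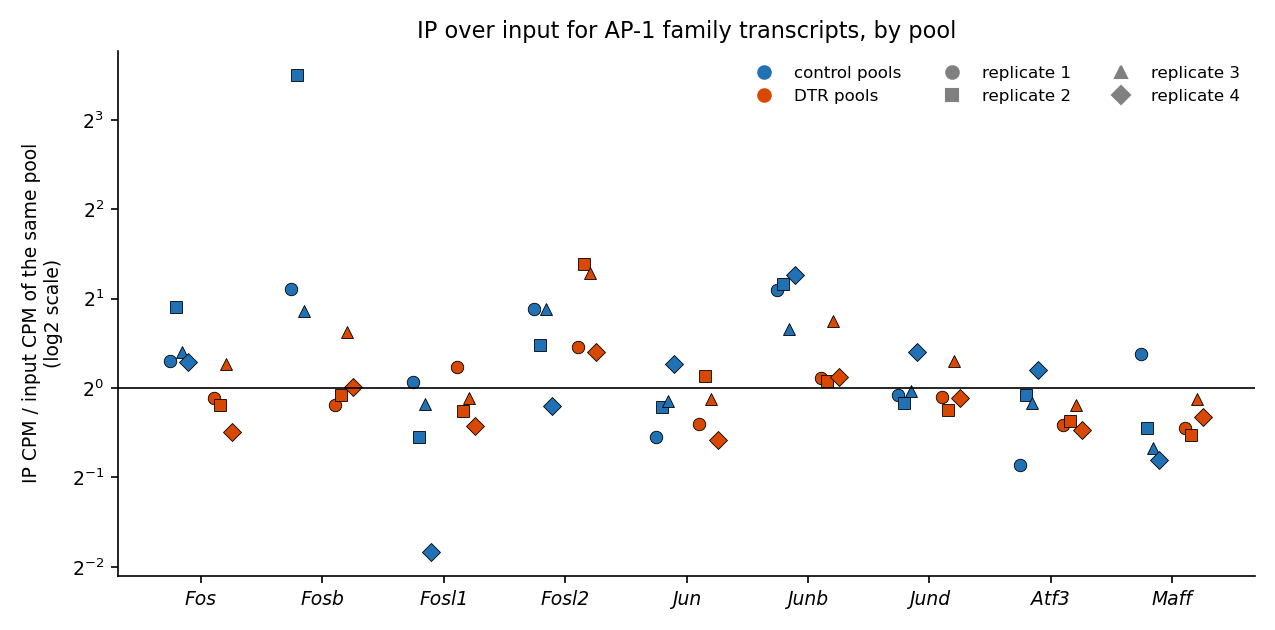
Ratio of IP CPM to input CPM within a pool (y axis, log2 scale) for the 9 genes (x axis), with blue points for control pools, orange points for DTR pools and shapes for replicate numbers; Fosb of control replicate 4 has no input read and no point. Junb lies at 1.59 to 2.40 in control pools and at 1.06 to 1.69 in DTR pools, and Fosl2 lies above 1 in all 4 DTR pools.

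To compare levels between genes, CPM were divided by the full exon length in kb, with bases shared with another gene included. Jund shares 52.6% of its exon bases and Fosl1 57.2%. If reads from shared bases were not counted, their levels per kb are too low. The order of Jun and Jund after damage is therefore uncertain. In control input Jund was highest at 49.5 ± 4.08 CPM per kb (SD, n = 4), followed by Jun at 15.4 ± 2.78, Junb at 7.96 ± 0.47, Fos at 2.51 ± 0.44 and Atf3 at 1.24 ± 0.23, each pair of neighbours without overlap, and Atf3 overlapped with Maff at 0.90 ± 0.18. In control IP Jund was again highest at 51.3 ± 11.6 CPM per kb, and Junb (16.5 ± 2.27) and Jun (13.7 ± 2.13) overlapped. After damage the order began with Jun, at 89.6 ± 17.8 CPM per kb in DTR IP and 107 ± 24.9 in DTR input, which overlapped with Jund at 66.2 ± 12.6 and 68.8 ± 16.9. Junb and Fos overlapped in both DTR groups, and Fosb was lowest on average in all 4 groups, at 0.62 ± 0.11 CPM per kb in DTR IP.

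The makeup of the family shifted accordingly. Summed over the 9 genes, the level was 79.4 to 106 CPM per kb in control IP and 190 to 281 CPM per kb in DTR IP, and 75.2 to 84.6 in control input and 171 to 325 in DTR input. Jund made up 57.9 ± 4.77% (SD, n = 4) of the sum in control IP and 29.0 ± 5.38% in DTR IP, whereas Jun made up 15.8 ± 3.29% and 39.0 ± 5.12%. Junb made up 18.9 ± 2.65% in control IP and 15.7 ± 1.72% in DTR IP. The 4 Fos genes together were 3.83% to 6.61% of the 3 Jun genes in control IP and 8.51% to 16.7% in DTR IP, and 4.40% to 5.46% against 7.92% to 16.04% in input. Shares of 1 sum depend on each other and are given as a description. They rest on the full exon length too, so the limit on Jund and Fosl1 given above applies to them.

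**Figure D4:**
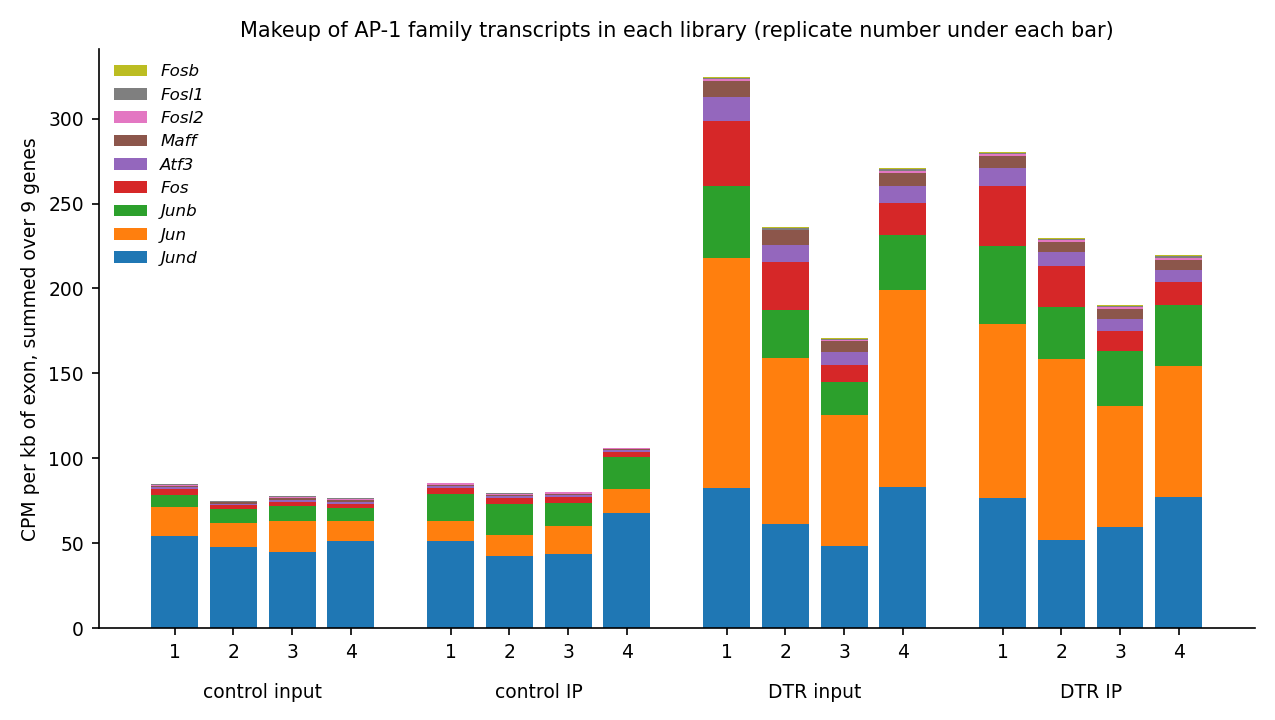
CPM per kb of exon (y axis) stacked over the 9 genes in each of the 16 libraries (x axis, replicate number under each bar, 4 groups). The control bars end between 75.2 and 106 with Jund as the largest part, and the DTR bars end between 171 and 325 with Jun as the largest part. The Jund part is too low if reads from its shared exon bases were not counted.

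The DTR pools differed among themselves in the same way for several genes. DTR input replicate 3 was the lowest of 4 for 7 of the 9 genes and DTR IP replicate 3 for 6, and replicate 1 was the highest for 6 genes in DTR input and for 5 in DTR IP. In control no library was lowest or highest for more than 4 genes. Lgr5 in the same pools was 17.9, 11.2, 15.1 and 19.6 CPM in DTR input and 8.13, 9.47, 8.61 and 11.3 CPM in DTR IP, lowest in replicate 2 in input and in replicate 1 in IP. Input and IP of a pool share their cochleae and the 9 genes share their libraries, so these counts are a description of 4 pools.

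Other genes of the pathway were taken from 5 lists and read against the shares of all genes called, 8.44% higher and 7.3% lower in IP and 7.17% higher and 5.21% lower in input. Of 18 tested genes of other zipper proteins related to AP-1, 2 were higher in IP, Atf4 and Mafk. Atf4, a translation-regulated stress factor, was 99.5 ± 11.2 CPM in control IP and 197 ± 8.05 in DTR IP (LFC 1.01, limma adjusted p = 6.93e-06). Mafk was 36.9 ± 3.74 and 52.8 ± 14.3 CPM (LFC 0.45, limma adjusted p = 0.04995), a call lost under most alternatives, with adjusted p up to 0.155. With the replicate block 5 of the 18 genes were higher and 1 was lower in IP, where that fit called 12.2% of all genes higher and 11.1% lower. In input 3 of 18 were higher: Atf4 (LFC 1.18), Mafk (LFC 0.88) and, named after its value was seen, Mafg (LFC 0.50). Of 20 kinases that act upstream of AP-1, Mapk12 was higher in IP (LFC 0.54, limma adjusted p = 0.0279) and Map2k1 and Mapk9 were lower (LFC -0.39 and -0.36, limma adjusted p = 0.0105 and 0.0471). In input 1 kinase was higher (Mapk12, LFC 0.60) and 1 was lower (Map2k1, LFC -0.37), and of these kinase calls that of Map2k1 in IP alone was kept on leaving out each single library (adjusted p up to 0.0963 for Mapk12 and 0.15 for Mapk9 in IP). None of 6 genes for serum response factor and its ternary complex partners passed the limma test in IP or input, 1 of the 6 having an unadjusted p under 0.05 in IP and none in input; edgeR called none and DESeq2 called Elk3 in IP.

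Among 31 other immediate early genes, 9 were higher in IP and 2 were lower, and 14 were higher and 1 lower in input. Egr4, a zinc finger factor, was 0.08 ± 0.12 CPM in control IP and 35.2 ± 22.4 in DTR IP (LFC 5.65, limma adjusted p = 3.77e-08). Like Fosb, Egr4 passed the filter on low values through the DTR groups alone. Egr1, its relative, was 49.9 ± 8.13 CPM in control IP and 767 ± 408 in DTR IP (LFC 3.85, limma adjusted p = 1.35e-06), and 55.4 ± 14.0 and 1700 ± 836 CPM in input (LFC 4.79, limma adjusted p = 8.01e-08). Cyr61, a secreted matrix protein, was 47.1 ± 3.33 and 108 ± 36.9 CPM in IP (LFC 1.15, limma adjusted p = 0.000367), and Gadd45b, a stress sensor, 9.99 ± 0.83 and 24.0 ± 2.53 CPM (LFC 1.15, limma adjusted p = 2.72e-06). The 2 that were lower, named after their values were seen, were Nr4a3 (LFC -1.04) and Btg2 (LFC -0.80). The list had a median LFC of 0.30 in IP and 0.43 in input. With the replicate block the IP comparison called 13 higher and 4 lower, against 12.2% and 11.1% of all genes.

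Of 16 tested genes known as AP-1 targets, 1 was higher in IP and 2 were lower. Cdkn1a, a cell cycle inhibitor, was 323 ± 30.8 CPM in control IP and 389 ± 48.0 in DTR IP (LFC 0.32, limma adjusted p = 0.0478), a call lost in 12 of 18 alternatives, among them edgeR (adjusted p = 0.313), DESeq2 (adjusted p = 0.331) and leaving out any 1 control IP library or DTR IP replicates 3 or 4 (adjusted p up to 0.137). Tnc, a matrix glycoprotein, was lower at 64.4 ± 16.1 CPM in control IP and 32.2 ± 6.65 in DTR IP (LFC -1.03, limma adjusted p = 0.00136), and Cd44, a hyaluronan receptor, at 70.9 ± 6.49 and 47.5 ± 3.80 CPM (LFC -0.60, limma adjusted p = 0.000358). In input 3 were higher, Cdkn1a and, named after their values were seen, Hbegf (LFC 0.63) and Lif (LFC 0.74), and Tnc and Cd44 were lower. The other 13 tested targets in IP did not pass the test, and 9 of the 25 listed were below the filter on low values. With the replicate block 3 targets were higher and 2 were lower in IP, against the same 12.2% and 11.1% of all genes.

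**Figure D5:**
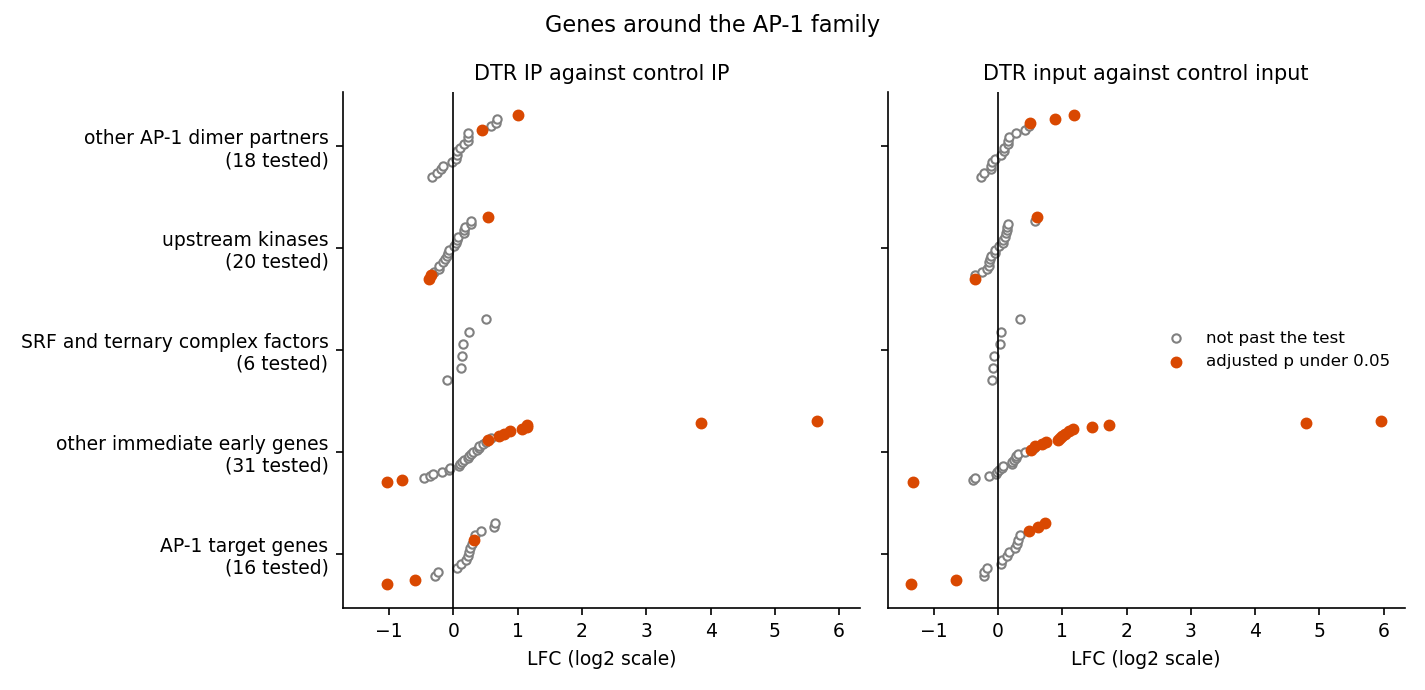
LFC (x axis, log2 scale) of the genes of 5 lists (y axis) in IP (left) and input (right), with 1 point per gene, filled where adjusted p was under 0.05. Egr4 and Egr1 stand at 5.65 and 3.85 in IP, and most genes of the other 4 lists lie between -0.5 and 1.

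The genes whose pattern over the 16 libraries was most like that of Atf3, by Pearson r of log2(quantile-normalized CPM + 0.5), were Jun (r = 0.989), Hist1h4h (0.987), Relb (0.987), Ptcra (0.985) and Hist1h2be (0.985). Relb, a subunit of NF-kB, was 14.0 ± 2.54 CPM in control IP and 124 ± 20.03 in DTR IP. For Fos they were Rrp1b (r = 0.982), Amotl2 (0.977), Egr4 (0.977), Gm44605 (0.976) and Egr1 (0.974), with Fosb at rank 9 (0.969) and Jun at rank 49 (0.950). Amotl2, a binding partner of YAP, was 63.1 ± 11.1 CPM in control IP and 163 ± 51.6 in DTR IP. The libraries formed 2 sets, DTR and control, which weigh most in these values, and input and IP shared pools, so r is given as a description.

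Markers of other cell types were counted too. The shares of all genes called were 8.44% higher and 7.3% lower in IP, and 7.17% higher and 5.21% lower in input. Of 8 tested macrophage markers, 5 were higher in DTR in IP and 5 in input, and the summed level of the 9 listed was 15.8 to 25.4 CPM in control IP and 36.3 to 57.0 in DTR IP, and 98.3 to 105 in control input and 134 to 217 in DTR input. Itgam was the lowest of these markers, at 0.23 CPM on average in control IP and 0.70 in DTR IP. Of 8 mesenchyme markers 5 were higher in IP (sums of 7295 to 8345 CPM in control and 10048 to 14107 in DTR) and 1 in input, and of 6 Schwann cell markers 2 were lower in IP and 4 in input. Of 10 hair cell markers 2 were higher in IP and 1 in input, and of 6 endothelial markers 2 were higher in IP and 1 in input. None of 6 neuron markers passed the test in IP or input. The 6 GER markers were mixed, with 3 lower and 0 higher in IP, and 3 lower and 2 higher in input. Epyc (3112 and 4140 CPM on average in control and DTR IP) and Dlx5 (36.1 and 43.3 CPM) had higher means in DTR IP, the other GER markers lower ones. In IP, the sums went from 126 to 140 CPM in control and 151 to 208 in DTR for hair cells, 7620 to 8335 and 5634 to 7302 for GER, 809 to 1247 and 566 to 807 for Schwann cells, and 98.1 to 119 and 149 to 162 for endothelium. The median LFC of IP against input was -0.08 in control and -0.19 in DTR for the GER markers, and 0.43 and 0.11 for the Lgr5+ lineage. In the same order it was -1.23 and -1.10 for hair cells, -1.67 and -1.89 for macrophages and -1.95 and -1.35 for Schwann cells. For endothelium it was -1.36 and -1.19, for neurons -1.05 and -0.71 and for mesenchyme -0.44 and -0.07. No marker of these lists was at 0 in all libraries. The part of these cell types in the levels of the AP-1 genes was not tested here.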

How the data were processed

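Paired-end libraries were made from input and ribosome-bound RNA of the same cochlear pools with a SMART-Seq v4 kit. Per the study's methods reads were aligned to GRCm38 with HISAT2 and counted with HTSeq, while the submitters' processing notes name TopHat. The strand setting of counting is not given in the sources used here. The deposited values are CPM of each library, made by the authors, for 50316 listed genes, of which 47729 had values. A further Jund row without values was not used. All CPM above 0 were whole multiples of 1 read (100%, within 0.001 reads, or 0.001% of larger values), so whole reads were recovered, and the libraries held 28089836 to 41966310 reads, a precision that covers counting error only.

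CPM were quantile-normalized, a gene was tested (16994) where each of the 4 libraries of any group reached 0.5 CPM, and log2(value + 0.5) was fitted with limma 3.58.1 (R 4.3.3; 4 group means, trend, two-sided, Benjamini-Hochberg over all genes tested). Groups and replicate numbers came from the sample titles. Replicates were separate pools by the study's methods. Input and IP of a number came from 1 pool, and deviations of same-numbered libraries correlated at 0.288 to 0.559 in all 4 comparisons, so blocks were fitted as an alternative. The block was the replicate number between DTR and control, and the pool between IP and input and in the interaction. Other alternatives were no quantile normalization, median centring, pseudocounts of 0.1 and 1, no filter or a filter of 2 CPM, only the compared groups, edgeR 4.0.16 and DESeq2 1.42.0 on recovered reads, and leaving out each library. Between DTR IP and control IP, limma called 2674 genes, edgeR 2682 and DESeq2 3114. The 9 genes, the gene lists and the marker lists were chosen with earlier results of these data known. Genes named beside the 9 were, for each list, up to 4 with the largest absolute LFC in IP past the test, and for Atf3 and Fos the 5 genes with the highest r. DTR IP against control IP and control IP against control input share the control IP libraries. Promoters came from RefSeq, and exon lengths from GENCODE M21. Tables were made with Python 3.11.15 and figures with matplotlib 3.10.9.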

Additional observations from a re-analysis of the deposited data

How the results depend on the processing

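Of 868 values of LFC for the 9 genes under the alternatives, 833 kept direction and side of the threshold, 19 were no longer past it, 16 came to pass it and 0 reversed. The counts of AP-1 genes higher in DTR were within 1.5 times the reported ones throughout: 6 to 9 in IP and 6 to 7 in input, with 4 to 6 and 5 to 6 meeting the DEG criteria. In control IP against control input the count was 2. It became 1 without quantile normalization, with median centring, with a pseudocount of 1, without a filter and with a filter of 2 CPM. It became 4 with the pool block, and 3 with only the compared groups (Fos, limma adjusted p = 0.0307) and by DESeq2 (Fosl2, 0.0432). On leaving out single libraries it was 1 to 2, Fosl2 passing limma without control IP replicate 2 (0.0462). In DTR IP against DTR input the count was 1 to 2 on leaving out single libraries, since without DTR input replicate 3 Maff was lower as well (LFC -0.48, limma adjusted p = 0.0489). The cause of these changes was not tested. Apart from the calls given beside their results, neither the replicate block nor the pool block changed a call of the 9 genes. A filter of 2 CPM removed Fosl1 from the test. Of 432 values of LFC for the named genes of the lists, 382 kept direction and side, 45 were no longer past the threshold, 5 came to pass it and 0 reversed.

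Depth limits Fosb in control, at 0 to 13 reads, and Fosl1, at 14 to 74 reads. With 4 pools per genotype, intervals of LFC were 0.729 to 1.38 wide in the limma fit without a block. Those of the interaction were 1.03 to 1.96 wide in the same fit. Differences between IP and input responses that lie inside a gene's interval were not excluded by that fit.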
